A study of Mus musculus with 18 samples.

Results

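Hair follicle stem cells (HFSC) from adrenalectomised mice that were fed corticosterone (ADX+CORT) were set against HFSC from sham-operated mice (Sham), in 2 libraries per group, chosen by their labels. These are 4 of the 18 libraries of the series. The series also holds HFSC from adrenalectomised mice without hormone (ADX, 2 libraries), HFSC of a GR KO (Pdgfra-CreER; GR fl/fl) and of its wild-type Control, and dermal papilla cells, which were not used here. GR KO and Control mice were female, on a 129/C57BL/6 background and both given tamoxifen for 6 days, and their HFSC libraries enter only the estimate of the spread between libraries. ADX+CORT, ADX and Sham mice were all female, wild type and on a C57BL/6 background, and the HFSC were purified by flow cytometry. The surgery was adrenalectomy with corticosterone feeding in ADX+CORT, adrenalectomy alone in ADX and a sham operation in Sham. The labels used here give no dose, duration or age, and do not say whether the libraries of a group came from separate animals, so p-values measure only the spread between these libraries. The comparison asks which genes of the stem cells are still away from the sham state after the hormone has been given back.

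Corticosterone is the main glucocorticoid of mice and is made by the adrenal cortex. It binds the glucocorticoid receptor, which is held by heat shock chaperones in the cytoplasm, moves into the nucleus with its ligand and switches on genes such as Fkbp5, Tsc22d3 and Per1. HFSC rest in the bulge of the hair follicle between growth phases and are kept there by transcription factors such as Sox9, Lhx2 and Nfatc1 and by signals from the dermal papilla. The title of the series names corticosterone, the secreted ligand Gas6 and the quiescence of these cells.

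Read counts per gene were analysed, with 18358343 and 18887195 counts in the ADX+CORT libraries, 14067139 and 17545373 in ADX, and 16781599 and 14288209 in Sham. Values are in CPM, the reads of a gene relative to the scaled size of its library, and fold changes are log2 of ADX+CORT over Sham from edgeR's quasi-likelihood fit, with 95% intervals. Pearson correlations of log2 CPM across genes were 0.950 between the ADX+CORT libraries and 0.953 between the Sham libraries. Between an ADX+CORT and a Sham library they were 0.941 to 0.953, a range that overlapped the values within groups. The 13 HFSC markers were all present in every library. Cd34, a surface marker of bulge stem cells, stood at 2469 and 2268 CPM in ADX+CORT, 767 and 1493 CPM in ADX, and 2527 and 2350.3 CPM in Sham. Krt15, a bulge keratin, stood at 26932 and 27887 CPM in ADX+CORT, 11439 and 19408 CPM in ADX, and 26681 and 32586 CPM in Sham.

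No gene passed an adjusted p of 0.05 between ADX+CORT and Sham, 0 of 15231 tested or 0%. The smallest adjusted p in edgeR was 0.191. At an unadjusted p under 0.05, 660 genes had a higher value in ADX+CORT (4.33% of genes) and 267 a lower value (1.75%). DESeq2 on the same libraries called 53 of 13459 genes (0.394%), 49 higher and 4 lower in ADX+CORT, the 4 being Mdn1, Nup210, Myo1g and Rac2. Both ADX+CORT libraries lay above both Sham libraries for 3282 genes (21.5%) and below both for 2912 genes (19.1%). By the same edgeR fit, 45 genes (0.295%) were called between ADX and Sham, 43 higher and 2, Chat and Slc14a1, lower in ADX. Between ADX+CORT and ADX 0 genes (0%) were called, with a smallest adjusted p of 0.0573 and 2941 genes at an unadjusted p under 0.05. The 3 comparisons share libraries, so their values are set side by side below and not correlated. A fold change that missed the threshold is not shown to be 0. The 95% interval lay within 2-fold in either direction for 6640 genes (43.6%), and its median half-width was 0.77 on the log2 scale.

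**Figure D1:**
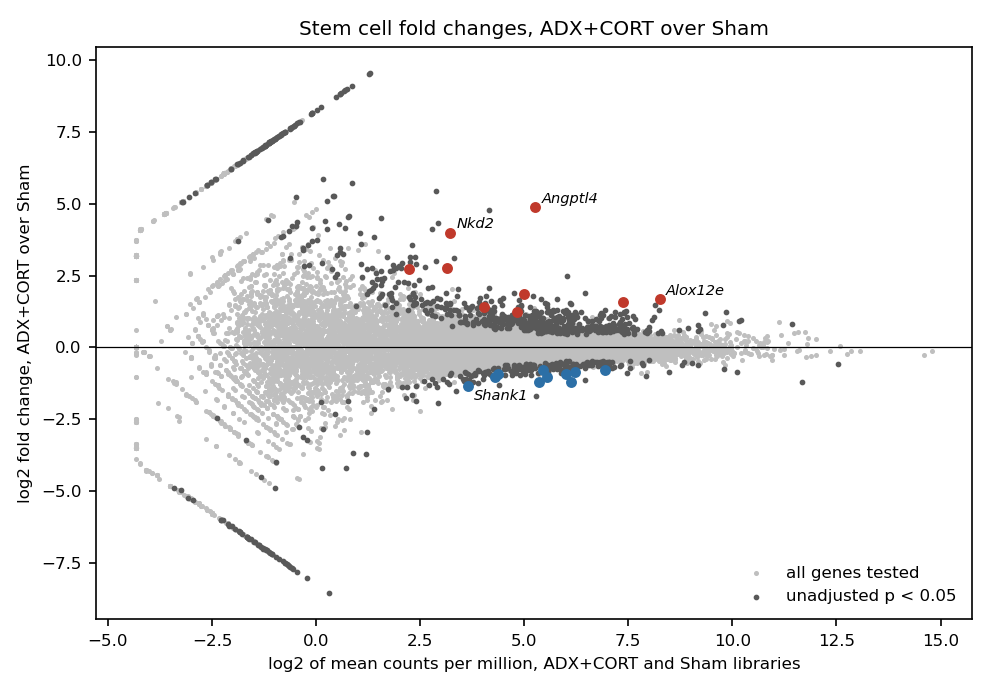
Log2 fold change of ADX+CORT over Sham (vertical axis) against the log2 of the mean CPM of these 4 libraries (horizontal axis), for 15231 genes. Dark points have an unadjusted p under 0.05, red and blue points are the 9 genes with higher and the 10 with lower values described in the text, and the straight edges at the left are genes with no read in a group.

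The genes below come from those with the smallest p among genes with at least 5 CPM in the higher group, 9 with higher and 10 with lower values, and none of them passed the threshold in edgeR. Positions are on mm10 as the files give them. In 4 of the 9 with higher values, the ADX libraries were high as well and the gene was called between ADX and Sham. The 9 genes were picked by their values against the same Sham libraries, so those calls are not separate support. The share of all genes with this pattern was not counted. Slco2b1 (chromosome 7, 99657804 to 99711340), an organic anion transporter that carries steroid sulphates, had 9.44 and 6.95 CPM in ADX+CORT, 11.4 and 12.3 CPM in ADX, and 1.35 and 1.13 CPM in Sham. Its fold change was 2.71 (1.75 to 3.68), with an edgeR adjusted p = 0.191. Angptl4 (chromosome 17, 33773750 to 33781575), a secreted inhibitor of lipoprotein lipase that is induced by glucocorticoids and by fatty acids, had 65.8 and 82.7 CPM in ADX+CORT, 9.99 and 109 CPM in ADX, and 1.64 and 3.39 CPM in Sham. The fold change was 4.89 (3.08 to 6.71), and 1 ADX library lay far below the other. Vim, an intermediate filament protein that is abundant in mesenchymal cells, had 27.9 and 20.2 CPM in ADX+CORT, 25.2 and 25.7 CPM in ADX, and 9.28 and 8.62 CPM in Sham, a fold change of 1.42 (0.86 to 1.99). Egr2, an immediate early zinc finger factor, had 41.8 and 37.6 CPM in ADX+CORT, 38 and 48.4 CPM in ADX, and 16.7 and 17.3 CPM in Sham, a fold change of 1.22 (0.70 to 1.74). In these 4 genes all ADX+CORT and ADX libraries lay above both Sham libraries. ADX over Sham gave 3.25 for Slco2b1, 4.57 for Angptl4, 1.51 for Vim and 1.34 for Egr2, with edgeR adjusted p = 0.0193, 0.0453, 0.0393 and 0.0439. For ADX+CORT over ADX the 4 values were −0.53, 0.32, −0.08 and −0.12, and none was called.

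The other 5 genes with higher values had no call between ADX and Sham. Alox12e (chromosome 11, 70315610 to 70322628), an epidermal arachidonate lipoxygenase, had 384 and 543 CPM in ADX+CORT, 119 and 207 CPM in ADX, and 133 and 158 CPM in Sham. Its fold change of 1.67 (1.03 to 2.32) had an edgeR adjusted p = 0.227, and ADX over Sham was 0.16. Both ADX+CORT libraries lay above all ADX and Sham libraries. Hspa1b (chromosome 17, 34956436 to 34959238), an inducible HSP70 chaperone, had 314 and 182 CPM in ADX+CORT, 80.2 and 108 CPM in ADX, and 85.2 and 80.5 CPM in Sham, a fold change of 1.58 (0.94 to 2.23). Gsdma, a gasdermin of the epidermis, had 38.7 and 61.6 CPM in ADX+CORT, 21 and 17.1 CPM in ADX, and 14.3 and 13.6 CPM in Sham, a fold change of 1.84 (1.07 to 2.62). In these 3 genes the ADX+CORT libraries stood apart from both other groups, which lay close together or overlapped. Nkd2, an inhibitor of WNT signalling that binds Dishevelled, had 12.9 and 22.3 CPM in ADX+CORT, 8.3 and 2.69 CPM in ADX, and 1.47 and 0.706 CPM in Sham. Its fold change was 4.0 (2.40 to 5.59), from few reads in Sham. Skint2, of a family of epidermal and thymic immunoglobulin-like proteins, had 18.8 and 11.8 CPM in ADX+CORT, 7.95 and 12.1 CPM in ADX, and 1.76 and 2.75 CPM in Sham. DESeq2 called all 9 genes, with an adjusted p of 7e-05 for Alox12e and 0.00376 for Egr2.

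**Figure D2:**
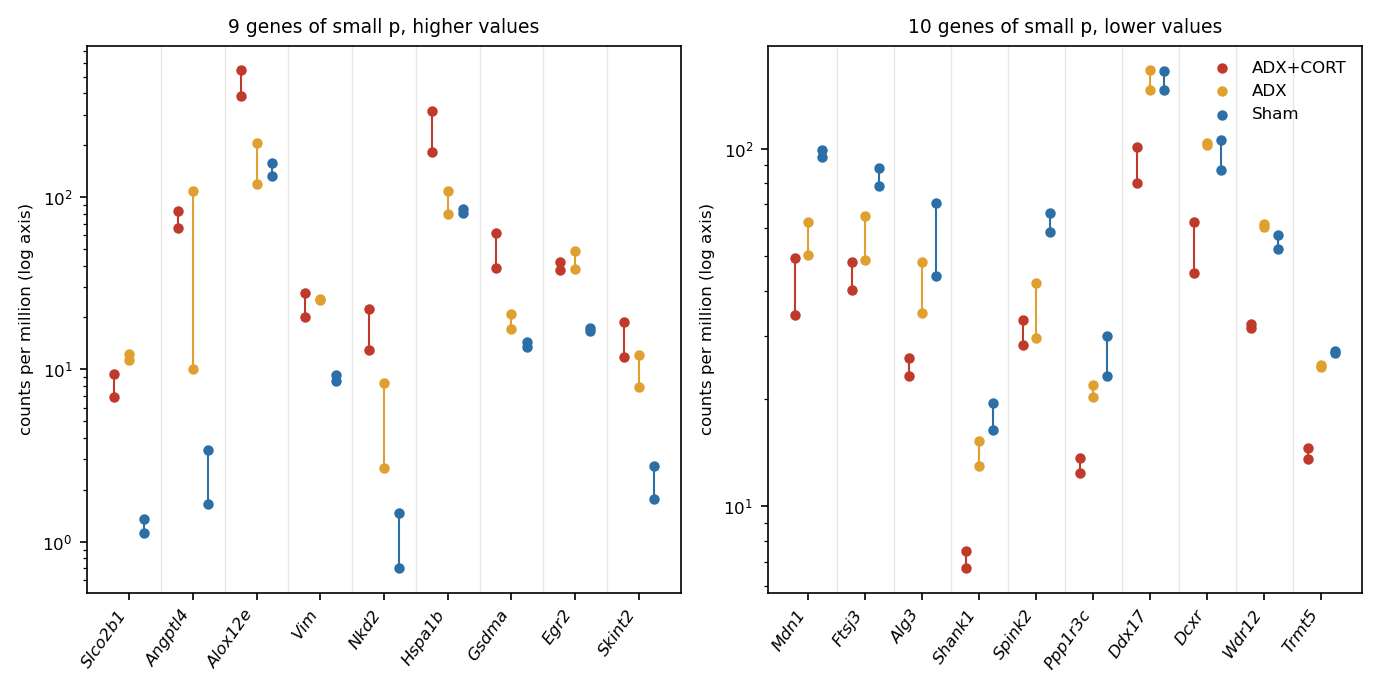
CPM in each library (log axis) for the 9 genes with higher values (left) and the 10 with lower values (right), in ADX+CORT (red), ADX (orange) and Sham (blue); each point is a library and lines join the 2 libraries of a group. For Alox12e the ADX+CORT libraries stand at 384 and 543 CPM, above the other 4 libraries, and for Slco2b1 both ADX+CORT and ADX lie above Sham.

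Among the 10 genes with lower values the fold changes were smaller, from −1.33 for Shank1 to −0.78 for Ddx17 and Wdr12. Mdn1 (chromosome 4, 32657119 to 32775217), a large ATPase that matures the 60S ribosomal subunit, had 49.3 and 34.3 CPM in ADX+CORT, 50.4 and 62.5 CPM in ADX, and 94.5 and 99 CPM in Sham. Its fold change was −1.21 (−1.88 to −0.54), with an edgeR adjusted p = 0.477 and a DESeq2 adjusted p = 0.0495. Ftsj3, a methyltransferase of ribosomal RNA processing, had 48.3 and 40.2 CPM in ADX+CORT, 65 and 48.7 CPM in ADX, and 78.4 and 88 CPM in Sham, a fold change of −0.91 (−1.43 to −0.39). Wdr12, which acts in the maturation of the 60S subunit, had 32.3 and 31.5 CPM in ADX+CORT, 61.5 and 60.5 CPM in ADX, and 52.3 and 57.3 CPM in Sham, a fold change of −0.78 (−1.27 to −0.29). Trmt5, a transfer RNA methyltransferase, had 14.6 and 13.6 CPM in ADX+CORT, 24.9 and 24.6 CPM in ADX, and 26.8 and 27.3 CPM in Sham. Ddx17, an RNA helicase, had 80.1 and 101 CPM in ADX+CORT, 165 and 145 CPM in ADX, and 146 and 165 CPM in Sham. For Wdr12, Trmt5 and Ddx17 the ADX libraries lay near the Sham libraries or among them, above both ADX+CORT libraries. For Mdn1 the ADX libraries lay between the other groups. For Ftsj3 the ADX libraries also lay between. Alg3, a mannosyltransferase of the endoplasmic reticulum, had a fold change of −1.22 (−1.94 to −0.50). Shank1, a scaffold protein best known from synapses, had −1.33 (−2.14 to −0.52). Spink2, a serine protease inhibitor, had −1.01 (−1.63 to −0.40). Both ADX+CORT libraries lay below both ADX libraries for Alg3 and Shank1, and within or below them for Spink2. Ppp1r3c, which targets protein phosphatase 1 to glycogen, had −1.03 (−1.66 to −0.40). Dcxr, an L-xylulose reductase, had −0.85 (−1.37 to −0.32). Each of the 10 had both ADX+CORT libraries below both Sham libraries, as did 19.1% of all genes.

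The promoters of 3 genes with higher values are shown because these genes answer signals, heat shock or growth stimulation, through known short elements near the start of transcription. The windows hold 250 bases before and 50 after the gene start, are given 5′ to 3′ on the strand of the gene and come from RefSeq on GRCm38.p6. Capitals mark GAANNTTC, the core of a heat shock element, in Hspa1a and Hspa1b, and TGACG or its complement CGTCA, the half-site of a cAMP response element, in Nr4a1. Hspa1a lies at chr17:34972107-34972406 and Hspa1b at chr17:34959189-34959488, both on the minus strand, and Nr4a1 at chr15:101266596-101266895 on the plus strand.
Hspa1a: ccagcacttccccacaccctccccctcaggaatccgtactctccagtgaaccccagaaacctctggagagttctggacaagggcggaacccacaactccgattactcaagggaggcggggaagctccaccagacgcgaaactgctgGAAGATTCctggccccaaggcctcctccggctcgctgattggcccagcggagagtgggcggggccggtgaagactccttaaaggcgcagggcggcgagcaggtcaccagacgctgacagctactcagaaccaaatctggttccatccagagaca
Hspa1b: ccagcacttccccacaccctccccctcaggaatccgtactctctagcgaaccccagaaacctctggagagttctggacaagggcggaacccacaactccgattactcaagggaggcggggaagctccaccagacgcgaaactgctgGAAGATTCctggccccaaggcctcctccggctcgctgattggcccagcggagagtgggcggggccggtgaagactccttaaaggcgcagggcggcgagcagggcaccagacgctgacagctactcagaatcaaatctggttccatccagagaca
Nr4a1: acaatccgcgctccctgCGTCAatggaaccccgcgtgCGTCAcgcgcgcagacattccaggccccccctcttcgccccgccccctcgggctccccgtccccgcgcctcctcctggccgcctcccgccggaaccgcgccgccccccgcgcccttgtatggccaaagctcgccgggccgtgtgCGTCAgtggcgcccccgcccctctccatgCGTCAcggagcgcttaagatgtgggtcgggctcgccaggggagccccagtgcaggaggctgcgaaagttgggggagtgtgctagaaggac
Aligned at their starts without gaps, the Hspa1a and Hspa1b windows are alike at 296 of 300 bases (98.7%), and in each the element begins 104 bases before the start. On either strand, GAANNTTC was found in 7.86% of 32817 windows of the RefSeq promoter table. The Nr4a1 window holds 4 half-sites, and 20.8% of windows held at least 1 and 0.232% at least 4. A match describes the letters and is not evidence of binding.

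Signals and effectors of glucocorticoids did not pass the threshold in either direction. Nr3c1, which encodes the glucocorticoid receptor, stood at 388 and 319 CPM in ADX+CORT, 267 and 266 CPM in ADX, and 421 and 399.8 CPM in Sham, a fold change of −0.21 (−0.73 to 0.30). Both ADX+CORT libraries were below both Sham libraries and above both ADX libraries. Nr3c2, the mineralocorticoid receptor, stood at 10.5 and 13 CPM in ADX+CORT and 10.5 and 11.8 CPM in Sham, a fold change of 0.08 (−0.99 to 1.15). Among 18 tested genes for receptors, their chaperones and local steroid enzymes, 14 had lower and 4 higher values. Over all genes 50.8% had a higher value. Only 1 of the 18, Hsd11b1, had an unadjusted p under 0.05, on the lower side where 1.75% of all genes were. For 9 of the 18 both ADX+CORT libraries lay below both Sham libraries, and for 0 above both. Over all genes these shares were 19.1% and 21.5%. The median of the list was −0.25, against 0.0085 for all genes. Hsp90ab1, a chaperone that holds the receptor ready for ligand, stood at 1329.6 and 1549 CPM in ADX+CORT and 1695 and 1837 CPM in Sham, a fold change of −0.30 (−0.77 to 0.18). Hsd11b1, which regenerates active corticosterone within cells, had no read in ADX+CORT, 6 and 38 reads in the ADX libraries and 8 reads in Sham. With 3 reads over ADX+CORT set in place of none it was 3.19-fold lower than in Sham, which leaves out the spread between libraries. The log2 fold change of Hsd11b1 was −5.33, with a wide interval (−10.1 to −0.52). Hsd11b2, which inactivates corticosterone, had 4 reads in ADX+CORT, 126 and 2 reads in the ADX libraries and none in Sham.

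For 3 of the 4 known receptor targets described here, the ADX+CORT libraries lay further apart than the Sham libraries did. Tsc22d3 encodes GILZ, an anti-inflammatory leucine zipper protein that glucocorticoids induce. It stood at 47.9 and 299.9 CPM in ADX+CORT, 74.5 and 248 CPM in ADX, and 273 and 363 CPM in Sham, a fold change of −0.87 (−2.40 to 0.66). ADX+CORT replicate 1 was below both Sham libraries and replicate 2 lay between them. Without replicate 1 the fold change was −0.09, and without replicate 2 it was −2.74. Zbtb16, a zinc finger factor that is strongly induced by glucocorticoids, had 37.7 and 119.6 CPM in ADX+CORT, 26.4 and 98 CPM in ADX, and 65.1 and 77.8 CPM in Sham, a fold change of 0.14 (−1.05 to 1.33). Per1, a clock repressor with a glucocorticoid response, had 29.1 and 57.2 CPM in ADX+CORT, 20.04 and 40.9 CPM in ADX, and 55.9 and 59.4 CPM in Sham, a fold change of −0.42 (−1.35 to 0.51). Fkbp5, a co-chaperone that lowers the receptor's affinity for ligand, had 3.29 and 4.67 CPM in ADX+CORT, 1.97 and 9.36 CPM in ADX, and 3.58 and 9.25 CPM in Sham, a fold change of −0.68 (−2.17 to 0.80). For all 4 targets replicate 1 was the lower library in ADX+CORT, in ADX and in Sham. The labels do not say that replicate numbers mark a shared animal or batch, and whether they do was not tested for these genes.

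Of 34 tested glucocorticoid-induced genes, 6 had higher values at an unadjusted p under 0.05, Angptl4, Tgm2, Dusp1, Glul, Acsl1 and Cdkn1a, and 3 lower values, Mt1, Mt2 and Pik3r1, where 4.33% of all genes had a higher and 1.75% a lower value at that level. None was called, and the median of the list was 0.08. The sign of this median was not stable: it was 0.41 without ADX+CORT replicate 1, −0.42 without ADX+CORT replicate 2 and −0.02 without Sham replicate 1. Mt2, a metallothionein that binds zinc and copper, had 117 and 209 CPM in ADX+CORT, 571 and 498 CPM in ADX, and 280.4 and 362 CPM in Sham. Its fold change was −0.98 (−1.70 to −0.26), and both ADX libraries lay above all others. Cdkn1a, the cyclin-dependent kinase inhibitor p21, had 254 and 378 CPM in ADX+CORT, 279.9 and 305 CPM in ADX, and 141 and 242 CPM in Sham, a fold change of 0.72 (0.01 to 1.44). Gas6, a ligand of the TAM receptor kinases, had 380.1 and 355 CPM in ADX+CORT, 248 and 239 CPM in ADX, and 288 and 335 CPM in Sham, a fold change of 0.24 (−0.29 to 0.77). Its receptor Axl had 199.6 and 164 CPM in ADX+CORT, 68.6 and 101 CPM in ADX, and 160.4 and 118 CPM in Sham, a fold change of 0.39 (−0.14 to 0.91). For Gas6 and Axl both ADX+CORT libraries lay above all ADX and Sham libraries. Mertk, another receptor of the family, had 73.7 and 61.1 CPM in ADX+CORT, 46.3 and 45.6 CPM in ADX, and 39.5 and 42.9 CPM in Sham, a fold change of 0.71 (0.22 to 1.21) and an edgeR adjusted p = 0.673. Of 8 TAM genes 6 had higher values and only Mertk had an unadjusted p under 0.05.

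**Figure D3:**
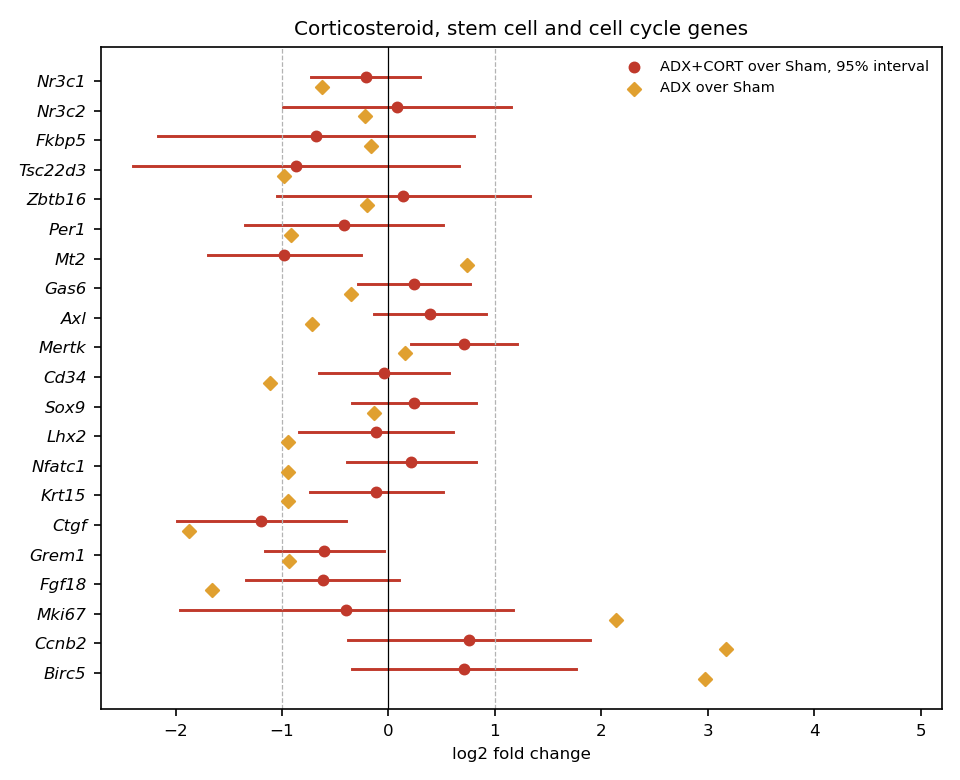
Log2 fold change of ADX+CORT over Sham with its 95% interval (red) and log2 fold change of ADX over Sham (orange diamonds) for genes of corticosteroid response, stem cells and the cell cycle; dashed lines mark 2-fold. The intervals of Cd34, Sox9, Lhx2, Nfatc1 and Krt15 lie within 2-fold of Sham, and the interval of Tsc22d3 reaches from −2.40 to 0.66.

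As a list, genes that define bulge stem cells had a median fold change near that of all genes. Of 32 tested, 14 had higher and 18 lower values in ADX+CORT, none was called, and the median fold change was −0.06, against −0.45 in ADX over Sham. The median of all genes was 0.0085 in ADX+CORT over Sham. Both ADX+CORT libraries lay below both Sham libraries for 9 of the 32 genes and above both for 3. Over all genes these shares were 19.1% and 21.5%. The summed level of the list was 64822 and 62555 CPM in ADX+CORT and 68816 and 72013 CPM in Sham, so it was lower in both ADX+CORT libraries. Sox9, which maintains the stem cell state, had 561 and 598 CPM in ADX+CORT, 445 and 449 CPM in ADX, and 539 and 443 CPM in Sham, a fold change of 0.24 (−0.34 to 0.82). Lhx2, a homeodomain factor of the bulge, had 380.1 and 362 CPM in ADX+CORT, 154 and 266 CPM in ADX, and 481 and 324 CPM in Sham, a fold change of −0.12 (−0.84 to 0.61). Nfatc1, a factor that holds the cells in quiescence, had 760.1 and 612 CPM in ADX+CORT, 256 and 358 CPM in ADX, and 712 and 469.7 CPM in Sham, a fold change of 0.22 (−0.39 to 0.82). Cd34 had a fold change of −0.04 (−0.66 to 0.57) and Krt15 of −0.11 (−0.74 to 0.51). The intervals of these 5 genes exclude a 2-fold difference from Sham in either direction. For Cd34, Lhx2, Nfatc1 and Krt15 both ADX libraries lay below all ADX+CORT and Sham libraries, with ADX over Sham at −1.11, −0.94, −0.94 and −0.94 and no call. For Sox9 it was −0.14.

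The list members with the smallest p-values encode secreted factors and had lower values. Ctgf, a matricellular protein and target of YAP, had 1753 and 2244 CPM in ADX+CORT, 824 and 1666 CPM in ADX, and 4467 and 4677 CPM in Sham. The fold change was −1.19 (−1.99 to −0.40) with an edgeR adjusted p = 0.633, and ADX over Sham was −1.88. All ADX+CORT and ADX libraries lay well below both Sham libraries. Grem1, an antagonist of bone morphogenetic proteins, had 501 and 419 CPM in ADX+CORT, 323 and 409 CPM in ADX, and 787 and 610.3 CPM in Sham, a fold change of −0.60 (−1.16 to −0.05). Fgf18, a growth factor that holds follicles at rest, had 50.7 and 60.2 CPM in ADX+CORT, 16.8 and 36.9 CPM in ADX, and 83 and 86.9 CPM in Sham, a fold change of −0.62 (−1.34 to 0.10), with an interval that includes 0. In ADX+CORT each of the 3 genes lay below both Sham libraries and above both ADX libraries. Ctgf and Grem1 were the 2 of 32 with an unadjusted p under 0.05, and for all genes that share was 1.75% on the lower side.

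As a list, cell division genes had lower values in ADX+CORT than in ADX, and values on either side of Sham. Of 34 genes of the G2 and M phases, 22 had higher and 12 lower values than Sham, with a median of 0.18, and ADX over Sham had a median of 2.18. Their summed level was 820 and 509 CPM in ADX+CORT, 2757 and 1179 CPM in ADX, and 588 and 644 CPM in Sham. The ADX+CORT libraries thus fell on either side of Sham. Without ADX+CORT replicate 1 or 2 the median was −0.51 or 0.67. Mki67, a protein of proliferating cells, had 32.4 and 6.52 CPM in ADX+CORT, 179 and 45.7 CPM in ADX, and 24.5 and 26.7 CPM in Sham, a fold change of −0.40 (−1.96 to 1.17). Ccnb2, a cyclin of mitosis, had 16.2 and 6.62 CPM in ADX+CORT, 83.4 and 38.1 CPM in ADX, and 6.34 and 7.13 CPM in Sham, a fold change of 0.76 (−0.38 to 1.90). Birc5, the mitotic protein survivin, had 20.1 and 10.5 CPM in ADX+CORT, 106 and 40.6 CPM in ADX, and 6.7 and 12 CPM in Sham, a fold change of 0.71 (−0.34 to 1.76). Ccnb2 and Birc5 rose in ADX over Sham, by 3.17 and 2.97 (edgeR adjusted p = 0.0393 and 0.0393). ADX+CORT over ADX gave −2.41 and −2.26, just short of the threshold (edgeR adjusted p = 0.0578 and 0.0575). Ttk, a kinase of the spindle checkpoint, was the 1 G2 and M phase gene with an unadjusted p under 0.05 against Sham, with 24.8 and 17 CPM in ADX+CORT, 14.6 and 10.2 CPM in ADX, and 7.34 and 11.4 CPM in Sham. Unlike the list as a whole, Ttk was higher in both ADX+CORT libraries than in both ADX libraries.

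The 32 genes of DNA replication and S phase had a median of 0.0057 over Sham and 0.90 in ADX over Sham, and none had an unadjusted p under 0.05 in ADX+CORT. Gins2, a subunit of the replicative helicase, had 23.8 and 13.4 CPM in ADX+CORT, 80.5 and 55.5 CPM in ADX, and 27.6 and 30.7 CPM in Sham; 67.3% of its exon bases overlap Gse1 on the opposite strand, and the counting used no strand. For 30 tested replication-dependent histone genes the median was 0.31, against 2.25 in ADX over Sham. Their summed level was 231 and 278 CPM in ADX+CORT, 1080 and 657 CPM in ADX, and 197 and 216 CPM in Sham, so ADX+CORT stood above Sham in both libraries and far below ADX. Hist1h1c, a linker histone, had 66.4 and 93.5 CPM in ADX+CORT, 134 and 193 CPM in ADX, and 51.3 and 46.3 CPM in Sham, a fold change of 0.71 (0.11 to 1.31). Hist1h1d, another linker histone, had 8.49 and 7.17 CPM in ADX+CORT, 56.7 and 21.5 CPM in ADX, and 3.11 and 5.01 CPM in Sham. Histone genes have near-identical copies, and their counts are uncertain.

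Genes of translation and respiration also lay nearer to Sham than those of ADX did. For 43 ribosomal protein genes the median was −0.11 in ADX+CORT over Sham and 0.97 in ADX over Sham, with 28 of 43 values lower in ADX+CORT. The first of these medians was 0.11 without ADX+CORT replicate 1 and 0.04 without Sham replicate 2. Rps15, a protein of the small subunit, had 231 and 307 CPM in ADX+CORT, 828 and 539 CPM in ADX, and 335 and 441 CPM in Sham. For 34 genes of oxidative phosphorylation the medians were −0.18 and 0.73, with 28 values lower and 6 higher in ADX+CORT. Atp5e, a subunit of ATP synthase, had 89.5 and 113 CPM in ADX+CORT, 259 and 197 CPM in ADX, and 128 and 162 CPM in Sham, a fold change of −0.52 (−1.06 to 0.01). No gene of either list had an unadjusted p under 0.05 against Sham.

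**Figure D4:**
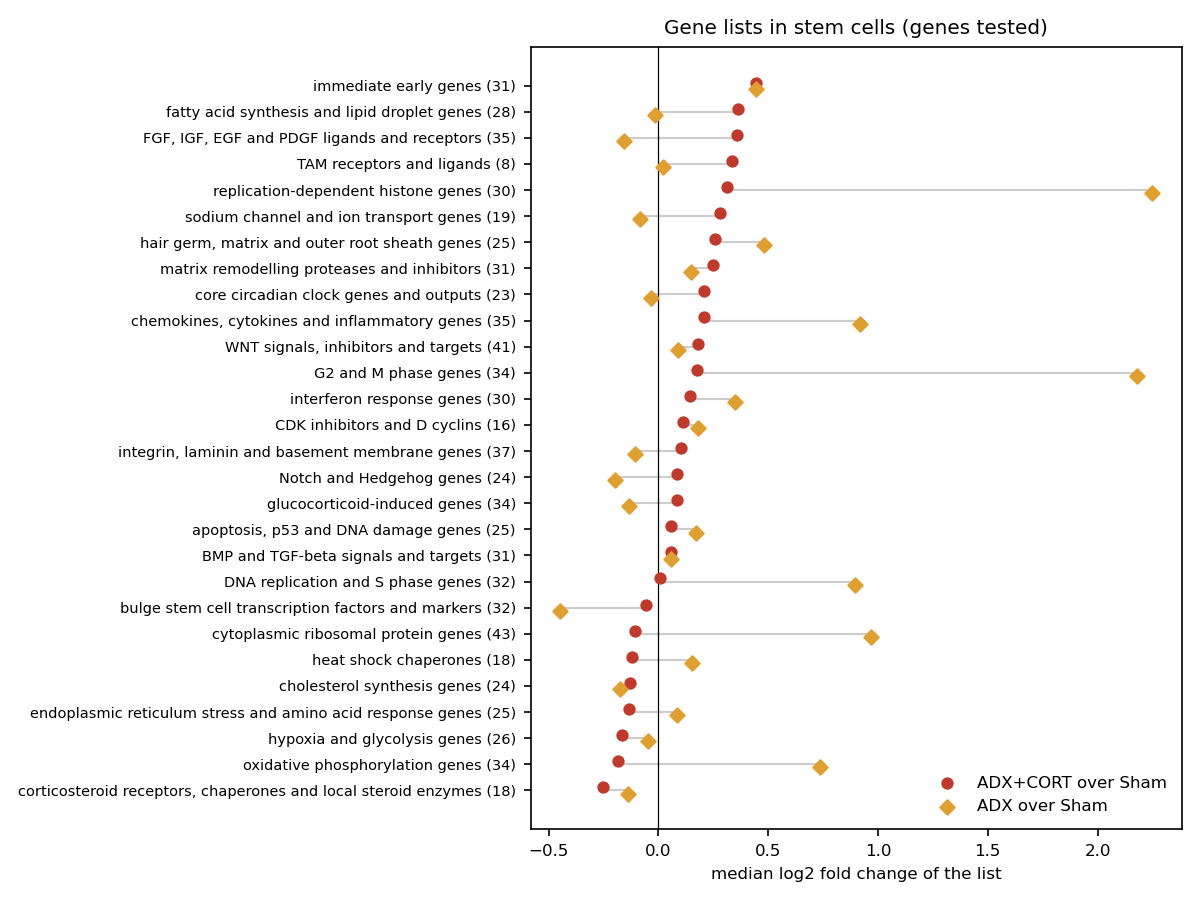
Median log2 fold change of 28 gene lists, ADX+CORT over Sham (red) and ADX over Sham (orange diamonds), with the number of genes tested in brackets; both share the Sham libraries. The lists of mitosis and histone genes have medians above 2 in ADX and of 0.18 and 0.31 in ADX+CORT, and the immediate early genes have nearly equal medians.

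Immediate early genes had higher values in ADX+CORT than in Sham, without a call. They encode transcription factors and feedback phosphatases that cells switch on within minutes of a stimulus. Of 31 tested, 27 had higher values in ADX+CORT and 7 had an unadjusted p under 0.05, all on the higher side where 4.33% of all genes were. The median was 0.44, and it was 0.45 in ADX over Sham. Their summed level was 18168 and 21826 CPM in ADX+CORT, 14856 and 24544 CPM in ADX, and 13591 and 14105 CPM in Sham. Nr4a1, an orphan nuclear receptor, had 283 and 208 CPM in ADX+CORT, 262 and 325 CPM in ADX, and 107 and 97.7 CPM in Sham, a fold change of 1.27 (0.68 to 1.85) and an edgeR adjusted p = 0.333. It rose in ADX over Sham by 1.52 (edgeR adjusted p = 0.0439), as Egr2 did. Atf3, a stress-induced factor, had 866 and 951 CPM in ADX+CORT, 691 and 1273 CPM in ADX, and 360.4 and 425 CPM in Sham, a fold change of 1.21 (0.46 to 1.96). In Nr4a1, Egr2 and Atf3 all 4 libraries of adrenalectomised mice lay above both Sham libraries. These genes were picked by a small p against the same Sham libraries.

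Of 18 genes on the heat shock chaperone list, 8 had higher and 10 lower values, with a median of −0.12, where 50.8% of all genes had a higher value. At an unadjusted p under 0.05, 3 had higher values, Hspa1b, Hspa1a and Dnajb1, and 1 a lower value, Hsf1. The shares of all genes at that level were 4.33% higher and 1.75% lower. Hspa1a had 117 and 50.2 CPM in ADX+CORT, 18.4 and 35.1 CPM in ADX, and 27.3 and 24.5 CPM in Sham, a fold change of 1.69 (0.81 to 2.57). Hspa1a and Hspa1b are near-identical copies, so their counts are uncertain, and 19% of the exon bases of Hspa1a overlap an antisense gene. Dnajb1, an HSP40 co-chaperone, had 461 and 563 CPM in ADX+CORT, 598 and 658 CPM in ADX, and 322 and 351 CPM in Sham, and in this gene ADX was the highest group. Among 25 genes of endoplasmic reticulum stress and amino acid response, 4 had higher and 5 lower values at an unadjusted p under 0.05. Of all genes 4.33% had a higher and 1.75% a lower value at that level. The lower ones, Hsp90b1, Calr, Creld2, Hspa5 and Sdf2l1, encode chaperones or folding factors of the endoplasmic reticulum, and the higher ones were Trib3, Sesn2, Slc7a5 and Herpud1. Hsp90b1, the chaperone GRP94, had 197 and 169 CPM in ADX+CORT, 339.6 and 230.4 CPM in ADX, and 262 and 275 CPM in Sham, a fold change of −0.56 (−1.05 to −0.06).

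Many lipid genes had higher values in ADX+CORT, 20 of the 28 tested genes of fatty acid synthesis and lipid droplets. Of these 28, 9 had a higher and 1 a lower value at an unadjusted p under 0.05, where 50.8% of all genes had a higher value and 4.33% a higher and 1.75% a lower one at that level. The list had a median of 0.36, against −0.01 in ADX over Sham. Scd1, the desaturase that makes monounsaturated fatty acids, had 81.4 and 194 CPM in ADX+CORT, 91.8 and 89.9 CPM in ADX, and 31.5 and 42.2 CPM in Sham, a fold change of 1.90 (1.0 to 2.81). Cpt1a, which brings fatty acids into mitochondria for oxidation, had 116 and 91.8 CPM in ADX+CORT, 47.9 and 43.9 CPM in ADX, and 42.4 and 30.02 CPM in Sham, a fold change of 1.52 (0.79 to 2.26). Dgat2, which makes triglycerides, had 193 and 214 CPM in ADX+CORT, 59.8 and 76.9 CPM in ADX, and 96.1 and 123 CPM in Sham, a fold change of 0.89 (0.36 to 1.43). For Cpt1a and Dgat2 both ADX+CORT libraries lay above all others, and for Scd1 both ADX libraries lay above Sham as well. Scd1 was the gene of these with the widest gap between its ADX+CORT libraries. Of 24 cholesterol synthesis genes 17 had lower values, with a median of −0.13 that was 0.21 without Sham replicate 2. Their summed level was 1166 and 1302 CPM in ADX+CORT, which lay between the 1023 and 1727 CPM of the Sham libraries. Insig1, a sterol sensor, had 13.6 and 12.2 CPM in ADX+CORT, 16.6 and 18.3 CPM in ADX, and 20.9 and 30.2 CPM in Sham, a fold change of −0.99 (−1.73 to −0.25).

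Markers of several other cell types of skin had higher values in ADX+CORT, most widely those of sebaceous gland, differentiated epidermis and endothelium. Over all genes 50.8% had a higher value and 4.33% a higher value at an unadjusted p under 0.05. In bulk libraries, more cells of a type and more RNA per cell cannot be told apart. All 15 sebaceous gland markers had higher values, 7 of them at an unadjusted p under 0.05, with a median of 1.47. For 7 of the 15 both ADX+CORT libraries lay above both Sham libraries, as did 21.5% of all genes. For Mgst1, Awat2 and Scd3 ADX+CORT replicate 1 lay below both Sham libraries and replicate 2 above both. Awat2 had 0.637 and 7.44 CPM in ADX+CORT and 1.41 and 4.59 CPM in Sham. Their summed level was 1117 and 1452 CPM in ADX+CORT, 1019 and 1397 CPM in ADX, and 587 and 809 CPM in Sham. Acsbg1, an acyl-CoA synthetase of sebocytes, had 168 and 182 CPM in ADX+CORT, 80.4 and 126 CPM in ADX, and 79.7 and 63.5 CPM in Sham, a fold change of 1.29 (0.67 to 1.91). Cidea, a lipid droplet protein, had 1.75 and 26.9 CPM in ADX+CORT, 16.7 and 28 CPM in ADX, and 0.235 and 0.424 CPM in Sham, so that the ADX+CORT libraries lay far apart. Without ADX+CORT replicate 1 the fold change of Cidea was called in edgeR (6.35, adjusted p = 0.0357), and without replicate 2 it was 2.41. Awat1, a wax ester synthase of sebocytes, had 120 reads in ADX+CORT and no read in Sham. With 3 reads over the group set in place of none it was 33.5-fold higher, which leaves out the spread between libraries. The log2 fold change of Awat1 was 8.94, with a wide interval (4.08 to 13.8). Awat1 was the only sebaceous marker at 0 in Sham. Dgat2 and Krt79 are on this list too. Sebaceous glands are rich in fatty acid synthesis, and the part of sebaceous cells in the values of the lipid genes was not tested.

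Of 24 tested markers of differentiated epidermis and upper follicle, 21 had higher values and 10 an unadjusted p under 0.05, with a median of 0.76. They summed to 8272 and 10731 CPM in ADX+CORT, 7545 and 8634 CPM in ADX, and 4323 and 6252 CPM in Sham. Cst6, a protease inhibitor of the cornified layer, had 382 and 474 CPM in ADX+CORT, 553 and 774 CPM in ADX, and 144 and 205 CPM in Sham, a fold change of 1.30 (0.58 to 2.01). Sprr1a, a cornified envelope protein, had 41.3 and 42.4 CPM in ADX+CORT, 59.6 and 62.8 CPM in ADX, and 18.4 and 24.3 CPM in Sham, a fold change of 0.97 (0.40 to 1.54). Krt79, a keratin of the upper follicle, had 403 and 433 CPM in ADX+CORT, 194 and 468 CPM in ADX, and 90.5 and 211 CPM in Sham, a fold change of 1.47 (0.54 to 2.41). Cst6 and Sprr1a rose in ADX over Sham (edgeR adjusted p = 0.0393 and 0.0393), and both ADX libraries were the highest for these 2 genes. Other epidermal markers differed in ADX. Lor had 93.3 and 67.2 CPM in ADX+CORT, 14.2 and 21.1 CPM in ADX, and 49.3 and 51 CPM in Sham. Ivl had 141 and 116 CPM in ADX+CORT, 26.8 and 58.8 CPM in ADX, and 55.3 and 92.7 CPM in Sham. For Krt1 both ADX libraries lay above both Sham libraries, and for Krt10 they overlapped Sham. The epidermal genes Alox12e and Gsdma had higher values alongside these markers in ADX+CORT, and the part of differentiated cells in their values was not tested.

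All 14 endothelial markers had higher values, 4 at an unadjusted p under 0.05, with a median of 1.56. The summed level was low, at 71.4 and 44.0 CPM in ADX+CORT, 56.3 and 51.0 CPM in ADX, and 14.5 and 23.3 CPM in Sham, and no endothelial marker was at 0 in any group. Plvap, a protein of endothelial diaphragms, had 14.2 and 7.06 CPM in ADX+CORT, 5.77 and 12.6 CPM in ADX, and 1.53 and 1.55 CPM in Sham, a fold change of 2.78 (1.56 to 4.01). Kdr, the main receptor of vascular endothelial growth factor, had 4.56 and 2.71 CPM in ADX+CORT, 3.45 and 2.81 CPM in ADX, and 0.352 and 0.989 CPM in Sham, and Pecam1, an endothelial adhesion protein, had 6.9 and 4.34 CPM in ADX+CORT, 6.61 and 3.51 CPM in ADX, and 1.41 and 2.4 CPM in Sham. In each of these 3 genes all 4 libraries of adrenalectomised mice lay above both Sham libraries, by whose values the genes were picked. In ADX over Sham the medians were 1.48 for the endothelial, 0.23 for the epidermal and 1.13 for the sebaceous markers. Over all alternative fits, leaving out each library included, the endothelial median of ADX+CORT over Sham was 0.80 to 2.31, the epidermal median 0.65 to 0.97 and the sebaceous median 0.51 to 2.21.

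Immune markers also summed higher in ADX+CORT, at 513 and 592 CPM, with 577 and 672 CPM in ADX, against 416 and 437 CPM in Sham. Of 21 tested, 14 had higher values, 4 of them at an unadjusted p under 0.05, and 1 had a lower value at that level, with a median of 0.43. That median was −0.37 without ADX+CORT replicate 2. The 4 higher ones were Laptm5, Csf1r, H2-Ab1 and H2-Eb1. H2-Ab1, a chain of an MHC class II molecule, had 27.4 and 43.9 CPM in ADX+CORT, 34 and 54.6 CPM in ADX, and 16.2 and 19.4 CPM in Sham, a fold change of 1.0 (0.31 to 1.69). Laptm5, a lysosomal membrane protein of blood cells, had 3.61 and 5.65 CPM in ADX+CORT, 5.34 and 5.26 CPM in ADX, and 1.76 and 1.55 CPM in Sham. The lower one, Lyz2, lysozyme of macrophages, had 4.88 and 8.36 CPM in ADX+CORT, 32.5 and 25.2 CPM in ADX, and 13.6 and 10.7 CPM in Sham, so that ADX+CORT was the lowest group.

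Of 10 melanocyte markers 7 had higher values, 2 of them at an unadjusted p under 0.05, with a median of 1.08 that was 0.73 to 1.44 over all alternative fits. Dct, an enzyme of melanin synthesis, had 18.9 and 18.3 CPM in ADX+CORT, 19.4 and 22.1 CPM in ADX, and 5.76 and 8.76 CPM in Sham, and Pmel, a melanosome protein, had 4.99 and 15 CPM in ADX+CORT, 15.5 and 10.2 CPM in ADX, and 4.05 and 2.83 CPM in Sham. The summed level of the list overlapped between the groups, at 126 and 134 CPM in ADX+CORT and 124 and 139 CPM in Sham. Of 19 fibroblast markers 13 had higher values, 3 of them at an unadjusted p under 0.05, and 6 lower values, none at that level. The median was 0.30, and it was −0.11 without Sham replicate 1. Dcn, a small proteoglycan, had 63 and 68.3 CPM in ADX+CORT, 99 and 64.8 CPM in ADX, and 21 and 34.5 CPM in Sham, and Col1a2, a chain of type I collagen, had 55.6 and 98.1 CPM in ADX+CORT, 32.2 and 35 CPM in ADX, and 32.9 and 46.3 CPM in Sham. Pdgfra, another fibroblast marker, went the other way, with 4 and 2 reads in ADX+CORT, 0 and 0 in ADX, and 32 and 20 in Sham. For Col1a1 and Col3a1 the ADX+CORT and Sham libraries overlapped. Vim is on the fibroblast list, and the part of fibroblasts in its value was not tested.

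Markers of muscle had mostly lower values. For smooth muscle and pericytes 9 of 12 were lower, with a median of −0.89, but the direction rested on Sham replicate 2, without which the median was 1.86. At an unadjusted p under 0.05, 3 had lower values, Myl9, Cnn1 and Actg2, and 1 a higher value, Notch3. Over all genes these shares were 1.75% and 4.33%. Notch3 had 9.39 and 12.9 CPM in ADX+CORT, 7.17 and 6.49 CPM in ADX, and 0.881 and 4.38 CPM in Sham. For Acta2 and Myh11 the ADX+CORT libraries lay between the Sham libraries. The markers summed to 383 and 445 CPM in ADX+CORT and 462 and 665 CPM in Sham. Myl9, a myosin light chain, had 117 and 131 CPM in ADX+CORT, 151 and 195 CPM in ADX, and 173 and 289 CPM in Sham, and Cnn1, calponin, had 3.71 and 2.5 CPM in ADX+CORT, 6.82 and 17 CPM in ADX, and 8.52 and 15.5 CPM in Sham. Skeletal muscle markers were lower for 8 of 9 tested, 3 of them at an unadjusted p under 0.05, and were near the limit of detection. They summed to 10.8 and 9.34 CPM in ADX+CORT and 18.9 and 21.5 CPM in Sham, and 7 of 15 were at 0 in ADX+CORT. Myl1, a myosin light chain of fast muscle, had 0 reads in ADX+CORT and 38 in Sham. With 3 reads over the group set in place of 0 it was 15.1-fold lower, which leaves out the spread between libraries. The log2 fold change of Myl1 was −7.59, with a wide interval (−13.5 to −1.73).

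**Figure D5:**
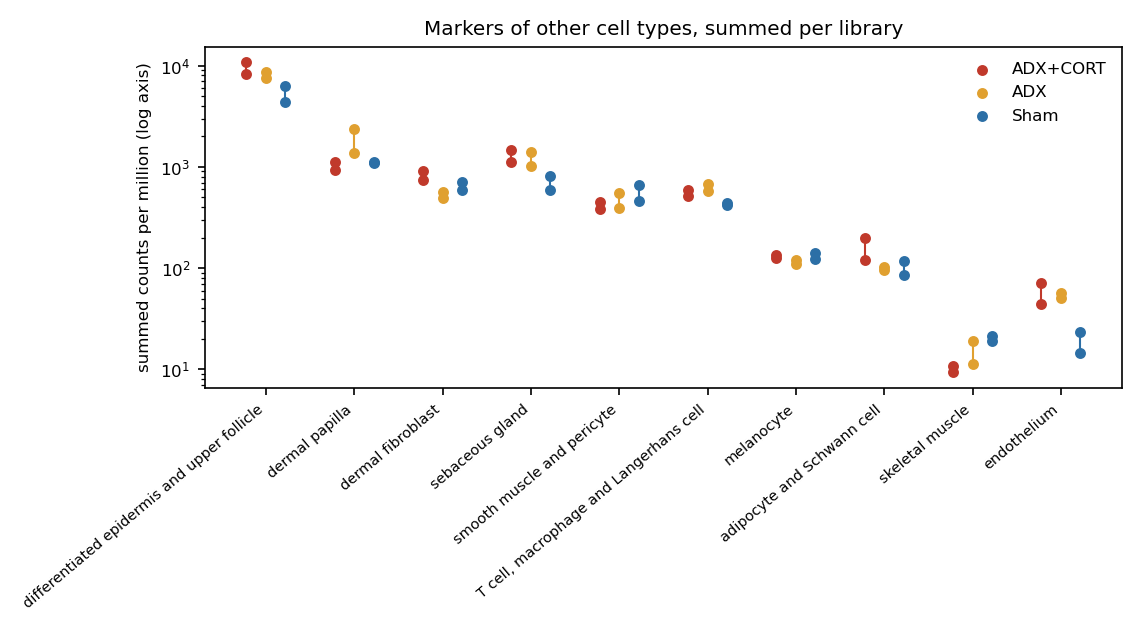
Summed CPM of the markers of each other cell type (log axis) in every library of ADX+CORT (red), ADX (orange) and Sham (blue). The sums of epidermal, sebaceous, endothelial and immune markers lie higher in the 4 libraries of adrenalectomised mice than in Sham, and those of melanocytes overlap.

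Several signalling lists held genes with higher values in ADX+CORT at an unadjusted p under 0.05, none of them called, and 4.33% of all genes had such values. Of 25 tested hair germ, matrix and outer root sheath genes, 5 had higher values at an unadjusted p under 0.05 and none a lower one, with a median of 0.26. Gsdma3, a gasdermin, had 12 and 8.63 CPM in ADX+CORT, 12 and 13.6 CPM in ADX, and 3.41 and 1.48 CPM in Sham, a fold change of 2.06 (1.12 to 3.01), and it was called in ADX over Sham (edgeR adjusted p = 0.0475). Ovol1, a zinc finger factor of epidermal differentiation, had 49 and 87.8 CPM in ADX+CORT, 30.2 and 35.7 CPM in ADX, and 28.9 and 33.5 CPM in Sham, a fold change of 1.13 (0.48 to 1.78). Msx2, a homeobox factor of the hair matrix, had 45.9 and 38 CPM in ADX+CORT, 33.9 and 35 CPM in ADX, and 26.6 and 20.3 CPM in Sham. Of 35 ligands and receptors of the FGF, IGF, EGF and PDGF families 7 had higher values at that level. Hbegf, a ligand of the EGF receptor, had 30.5 and 33.5 CPM in ADX+CORT, 83.5 and 54.8 CPM in ADX, and 14.7 and 17.6 CPM in Sham, a fold change of 0.98 (0.34 to 1.63). It rose in ADX over Sham by 2.10 (edgeR adjusted p = 0.0231), and ADX+CORT lay between ADX and Sham without overlap.

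Of 41 WNT genes 5 had higher values at an unadjusted p under 0.05 and none a lower one. They were Nkd2, Notum, Apcdd1 and Kremen1, which encode inhibitors of WNT signalling, and the ligand Wnt7b. Apcdd1 had 12.5 and 15.4 CPM in ADX+CORT, 11.4 and 12.9 CPM in ADX, and 6.23 and 3.18 CPM in Sham, a fold change of 1.56 (0.51 to 2.61). Notum had 109 reads in ADX+CORT, 10 and 8 reads in the ADX libraries and none in Sham. With 3 reads over the group set in place of none it was 30.4-fold higher, which leaves out the spread between libraries. The log2 fold change of Notum was 8.81, with a wide interval (3.16 to 14.5). Nearly all of its level, 0.318 and 5.59 CPM, came from 1 ADX+CORT library. Of the exon bases of Notum, 29.4% overlap Notumos and 8.7% Myadml2os on the opposite strand, and the counting used no strand.

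Of 24 Notch and Hedgehog genes 5 had higher values at an unadjusted p under 0.05 and none a lower one. Hes1, a repressor that Notch induces, had 39.6 and 38.8 CPM in ADX+CORT, 111 and 50.4 CPM in ADX, and 21.7 and 21.1 CPM in Sham, a fold change of 0.87 (0.13 to 1.62). Nrarp, a feedback inhibitor of Notch, had 7.96 and 7.71 CPM in ADX+CORT, 4.43 and 4.04 CPM in ADX, and 2.06 and 2.19 CPM in Sham; 79.4% of its exon bases overlap a gene on the opposite strand. Among 35 inflammatory genes 7 had higher values at that level. Tnfaip3, the NF-kappaB inhibitor A20, had 48 and 30.02 CPM in ADX+CORT, 71.4 and 61.5 CPM in ADX, and 23.3 and 16.9 CPM in Sham, a fold change of 0.96 (0.33 to 1.58), and Cx3cl1, the chemokine fractalkine, had 25.1 and 48.8 CPM in ADX+CORT, 14.4 and 17 CPM in ADX, and 17.8 and 19 CPM in Sham. Tnfaip3 was highest in ADX with ADX+CORT between, whereas for Cx3cl1 the ADX libraries lay below both other groups. Of 23 clock genes 1, the repressor Bhlhe40, had an unadjusted p under 0.05, with 22.9 and 26 CPM in ADX+CORT, 39.4 and 41.3 CPM in ADX, and 12.4 and 15.7 CPM in Sham. Of 37 basement membrane genes 3 did, among them the laminin chains Lamb2, with 58.2 and 69.1 CPM in ADX+CORT, 28 and 27 CPM in ADX, and 40.8 and 41.3 CPM in Sham, and Lamb3, with 634 and 815 CPM in ADX+CORT, 369 and 482 CPM in ADX, and 535 and 394 CPM in Sham. Of the 31 BMP and TGF-beta genes 2 had a lower value at that level and none a higher one, where 1.75% of all genes had such a lower value. They were Grem1 and Chrd, both antagonists of bone morphogenetic proteins. Chrd, which encodes chordin, had 0 reads in ADX+CORT and 33 in Sham, and ADX libraries had 0 reads as well. With 3 reads over ADX+CORT set in place of 0 it was 13.1-fold lower, which leaves out the spread between libraries. The log2 fold change of Chrd was −7.29, with a wide interval (−13.3 to −1.28). None of the 19 ion transport genes reached that level in either direction. On the list of CDK inhibitors and D cyclins 3 of 16 genes had higher values at that level. They were the inhibitors Cdkn1a and Cdkn2b and the transcription factor Mycn. Higher values at that level were also found for 3 of 25 apoptosis and p53 genes and 1 of 31 matrix proteases and inhibitors. Interferon response genes had 3 higher and 1 lower of 30, and hypoxia and glycolysis genes 2 higher and 1 lower of 26. Dermal papilla markers had 1 higher of 12, and adipocyte and Schwann cell markers 2 higher of 9.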

How the data were processed

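The authors deposited read counts per gene for the 10 HFSC libraries. Per the file headers, featureCounts 1.6.1 counted reads on exons, required a mapping quality of 30 and ignored strand, so reads of genes that overlap on opposite strands cannot be told apart. Tools named in the submitters' processing notes are STAR 2.5.3, Trim Galore 0.4.1 and DESeq2 1.22.2, with the build mm10. Per the labels' protocols, cDNA came from SMART-Seq v4 and libraries from Nextera XT. In the 2 ADX+CORT files 27 gene names had become dates and were restored from coordinates.

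A model with 5 group means was fitted to the 10 libraries in edgeR 4.0.16 (R 4.3.3). It used TMM scaling, filterByExpr and the quasi-likelihood test, with Benjamini-Hochberg adjustment over 15231 genes and a threshold of 0.05. The common biological coefficient of variation was 38.7% on 5 residual degrees of freedom, and intervals are at 95%. Reads carry no molecular identifiers, so folds with 3 reads set in place of 0 cover only the counting error of that group. They leave out the spread between libraries. The comparison, the 38 gene lists and the rule for named genes were chosen with earlier results of these data known. The rule takes called genes by fold change, a fixed set of steroid, TAM, proliferation and stem cell genes, up to 3 genes per list with the smallest p and, where fewer than 10 are called in a direction, the 10 of smallest p with at least 5 CPM in the higher group; 1 gene it names is not reported here. Over all genes, deviations of same-numbered ADX+CORT and Sham libraries from their group means correlated at 0.016, and the reported fit had no replicate block. Pairing that acts on a few genes was not tested. The steps were tested on simulated data. Alternatives, with DESeq2 1.42.0 among them, are in the closing section.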

Additional observations from a re-analysis of the deposited data

How the results depend on the processing

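The count of 0 genes called between ADX+CORT and Sham was also 0 with median-of-ratios scaling, in a fit of the 6 surgery libraries and with the replicate block (0 higher, 0 lower). DESeq2 called 53 genes, 49 higher and 4 lower. A fit of the 4 libraries compared called 23, of which 22 were higher and 1 lower, and with the filter redone on those libraries, an alternative chosen after seeing the data, it called 2, both higher and 0 lower. Without the filter on low counts 184 genes were called, 165 higher and 19 lower; all 184 had passed the filter, and in that fit the prior degrees of freedom of the dispersion were infinite, against 7.77 in the reported fit. Leaving out each of the 4 libraries in turn gave 0 to 4 genes, all higher. Without ADX+CORT replicate 1 these were Tmem45b and Cidea, joined by Fa2h and Adam8 with the filter redone, and without Sham replicate 2 with the filter redone they were C1qb and Csf1r, named here after their values were seen. Where 1 library remained in a group, its spread was taken from the other groups.

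Of 1392 fold changes of the 93 genes named, 1303 kept their direction and side of the threshold, 68 passed it and 21 changed sign, all with a library left out. With a library left out the ranges were −0.12 to 0.23 for Nr3c2, −1.22 to 0.15 for Fkbp5, −0.95 to 0.74 for Zbtb16, −1.97 to 0.33 for Mki67, −0.11 to 0.012 for Cd34, −0.37 to 0.20 for Lhx2, −0.053 to 0.55 for Nfatc1, −0.25 to 0.039 for Krt15 and −0.024 to 1.26 for Ccnb2. The cause was not tested. Of 570 medians of the 38 lists under these alternatives, 495 moved by less than the spread between libraries of a group, and 46 had the opposite sign. With 2 libraries per group and a median interval half-width of 0.77, changes under 2-fold were mostly beyond the precision of these data.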

Other observations

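Of the 4 genes with the smallest p between ADX+CORT and Sham, 3 averaged under 5 CPM in ADX+CORT and had no read in either Sham library. They are named here after their values were seen, and each had an edgeR adjusted p = 0.191. Lepr, the leptin receptor, had 68 and 110 reads in ADX+CORT, 14 and 42 reads in ADX and 0 in Sham. Adam8, a metalloprotease of leukocytes, had 37 and 87 reads in ADX+CORT, 47 and 32 reads in ADX and 0 in Sham. Cd209e, a C-type lectin of the DC-SIGN family, had 28 and 22 reads in ADX+CORT, 14 and 31 reads in ADX and 0 in Sham. In all 3 genes the 4 libraries of adrenalectomised mice held reads and the Sham libraries none. The ADX values are not separate support, since the genes were picked by their values against the same Sham libraries.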
